A study of Mus musculus with 12 samples.

Results

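Retinoic acid is made from vitamin A, and 9 genes of its synthesis, breakdown, binding and reception were followed through 12 RNA-Seq libraries of mouse forelimb cartilage. *Aldh1a2* makes retinoic acid, *Dhrs3* turns its precursor retinal back into retinol, *Cyp26b1* breaks it down, *Crabp1* and *Crabp2* bind it in the cytosol, and *Rara*, *Rarb*, *Rarg* and *Rxra* encode nuclear receptors. The genes were taken by their symbols, and all 9 were found among the 36186 rows of the expression table.

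The libraries came from the forelimb zeugopod, the segment of the radius and ulna, of embryos at E15.5 on a mixed 129/CD-1 background. Chondrocytes were taken by laser capture microdissection (LCM). From wild-type (WT) embryos there were 3 libraries each of the resting, proliferative and hypertrophic compartments of the growth plate. The other 3 libraries were from *aadd* embryos, homozygous for frameshift mutations in the opening exons of 6 genes, *Hoxa9*, *Hoxa10*, *Hoxa11*, *Hoxd9*, *Hoxd10* and *Hoxd11*. The sample labels name the hypertrophic compartment hyperproliferative and give *aadd* the compartment resting. According to the study, the whole chondrocyte population of the *aadd* zeugopod was taken because the tissue was small and looked the same throughout in sections, and all captures held some perichondrium. The mutations are carried in every cell of the embryo, so *aadd* differs from WT resting both in genotype and in the region captured, and these cannot be told apart.

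Retinoic acid is a small lipid ligand made locally, and its level in a cell is set by enzymes that form it and by CYP26 enzymes that remove it. It binds RAR proteins, which sit on DNA as pairs with RXR proteins and repress many targets until the ligand is bound. In limb cartilage, RARs are known for a role without ligand as repressors, high retinoic acid is known to hold back cartilage formation, and loss of *Cyp26b1* is known to disturb limb skeletal growth.

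Levels are given as NRPKM, read numbers divided by transcript length and library size and scaled further by the authors, so that levels of different genes can be set side by side per length. Depth was estimated from the value of 1 read in single-exon genes and came to 1890000 to 3240000 reads per library (median 2590000). All 10 cartilage matrix and *Sox9* marker genes had a mean of at least 5 NRPKM in every group. The mutated genes were still transcribed in *aadd*, with *Hoxa11* at 5.17 to 11.1 NRPKM against 11.3 to 30.5 in WT resting and *Hoxd11* at 25.1 to 35.4 against 4.34 to 7.31. The hypertrophic libraries did not form a tight group. Replicates 2 and 3 stood 0.613 apart over the genes tested, as the root mean square of their log2 differences, and replicate 1 stood 1.11 and 1.037 from them. The summed level of 10 hypertrophic markers was 1343 NRPKM in hypertrophic replicate 1 and 2705 and 2696 in replicates 2 and 3, against 612 to 798 in the proliferative libraries. The lower sum of replicate 1 lay in *Mmp13* (3.05, 735 and 661 NRPKM in replicates 1, 2 and 3) and *Spp1* (24.1, 1083 and 979). Of the other markers, *Col10a1*, *Ihh*, *Mef2c*, *Panx3*, *Pth1r* and *Runx2* were highest in replicate 1, and *Alpl* and *Sp7* in replicate 3. The summed level of 10 endothelial markers was 21.7 NRPKM in replicate 1 and 304 and 212 in replicates 2 and 3, and that of 10 osteoclast markers was 59.3, 1379 and 1023. All other libraries were at 5.005 to 37.3 NRPKM for endothelial and 37.9 to 69.4 for osteoclast markers. The macrophage markers summed to 252 and 220 NRPKM in replicates 2 and 3 and to 15.6 to 49.5 elsewhere. Most of this was *Cd68*, at 174 and 160 NRPKM in replicates 2 and 3, and *Csf1r*, at 56.7 and 49.6. No other gene of that list was above the remaining libraries in both replicates, and *C1qa*, which macrophages express, was at 0 to 0.313 in all 12. WT resting replicate 2 had 222 NRPKM of 10 epidermal markers, against 7.01 to 36.6 in the other libraries. The main differences that involve the hypertrophic group are therefore given with and without replicate 1.

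RAR and RXR bind pairs of a 6-base element that stand in the same direction with 1, 2 or 5 bases between them. Promoter windows from 250 bases before to 50 after a gene's start were read from RefSeq (GRCm38.p6) for 8 of the 9 genes, 15 windows in all, and searched on both strands for these pairs, each element being AGGTCA in its usual form or else GGTTCA, with the forms AGTTCA and also GGGTCA allowed. The pair with 5 bases between was in the window of *Rarb*, which is a textbook target of retinoic acid, and no other window of the 9 genes held any of the pairs. Of the 28 other pathway genes with a window, *Cyp26a1* had the pair with 5 bases between and *Bco1* the pair with 1. Over all 32851 windows of this length, 0.0974% held the pair with 5 bases between and 0.588% held any of the 3 spacings. A match is a run of letters, not a measured site. The 250 bases before the start of *Rarb* (chr14:16575477-16575726, minus strand) and *Cyp26a1* (chr19:37697558-37697807, plus strand) are shown 5′ to 3′ on the gene's strand because their matches are the classical retinoic acid response elements, and capitals mark the match. The RefSeq start used for *Rarb* lies inside the span of its row in the expression table, so the window stands before an internal start of the gene.
*Rarb*: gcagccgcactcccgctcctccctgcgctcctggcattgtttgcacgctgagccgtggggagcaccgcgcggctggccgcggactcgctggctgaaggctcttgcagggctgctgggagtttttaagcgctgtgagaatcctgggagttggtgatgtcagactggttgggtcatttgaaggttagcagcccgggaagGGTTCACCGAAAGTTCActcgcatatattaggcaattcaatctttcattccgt
*Cyp26a1*: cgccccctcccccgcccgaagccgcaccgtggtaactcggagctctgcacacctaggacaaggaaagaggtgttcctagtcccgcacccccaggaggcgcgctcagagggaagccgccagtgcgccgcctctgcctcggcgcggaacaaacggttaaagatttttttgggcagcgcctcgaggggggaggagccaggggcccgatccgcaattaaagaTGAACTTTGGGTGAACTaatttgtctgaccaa
The match begins 53 bases before the start in *Rarb* (chr14:16575513-16575529). In *Cyp26a1* it begins 32 bases before the start (chr19:37697776-37697792) and reads on the opposite strand. Both genes that carry this element were low in every library. *Rarb* stayed between 0.997 and 2.64 NRPKM, and *Cyp26a1*, which encodes another enzyme of retinoic acid breakdown, reached at most 1.501.

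*Aldh1a2* (chr9:71215789-71296243, plus strand, mm10) encodes the main retinal dehydrogenase of the embryo, which forms retinoic acid. It was at 0, 0.736 and 0.691 NRPKM in WT resting, 0.719, 1.21 and 1.67 in WT proliferative, 3.96, 6.28 and 3.53 in WT hypertrophic and 0.00635, 1.17 and 0.309 in *aadd*. Every hypertrophic library lay above the other 9 libraries, as for 5.73% of the genes tested, which did not include *Aldh1a2*. These levels rested on an estimated 21 to 46 reads in the hypertrophic libraries and at most 7.2 in any other. The gene did not reach 5 NRPKM in 3 libraries and so was not among the 10936 genes tested. An exact two-sided permutation test of 3 libraries against 3 gave *P* = 0.1 for hypertrophic against resting and against proliferative, the smallest value it can give. Without the filter on low values, limma gave adjusted *P* = 0.15 and 0.25 for the same comparisons. Replicate 1, whose endothelial and osteoclast sums were near those of the other groups, had 3.96 NRPKM of *Aldh1a2*, between the levels of replicates 2 and 3. The summed level of 10 osteoblast markers was also highest in the hypertrophic libraries, at 2115, 3211 and 4736 NRPKM, and at most 1868 in any other. Within the group the sum was highest in replicate 3, where *Aldh1a2* was lowest. The part of osteoblasts in the level of *Aldh1a2* was not tested. In bulk samples such as these, fewer cells of a type and less RNA per cell cannot be told apart.

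*Dhrs3* (chr4:144892827-144927645, plus strand) encodes a reductase that returns retinal to retinol and so takes away the substrate of retinoic acid synthesis. Its level was 50.4, 57.7 and 48.0 NRPKM in WT resting, 16.4, 14.6 and 18.0 in WT proliferative, 12.8, 41.5 and 40.6 in WT hypertrophic and 41.2, 40.7 and 39.3 in *aadd*. The resting libraries were above all 9 others, which was so for 1.15% of all genes tested. The proliferative libraries and hypertrophic replicate 1 were low together, and the *aadd* libraries lay close to hypertrophic replicates 2 and 3. From resting to proliferative, *Dhrs3* fell by 1.67 on the log2 scale (SE 0.17, 95% confidence interval -2.07 to -1.27, 3.18-fold, limma adjusted *P* = 0.019). It passed the criteria of the study, an unadjusted *P* up to 0.05 with a fold change of at least 2, under all 14 alternative settings. With the replicate number as a block the same change had adjusted *P* = 0.072. The adjusted *P* was also above 0.05 without resting replicate 2 or 3 or proliferative replicate 2 or 3, and over all settings adjusted *P* ran from 0.0038 to 0.10. Without resting replicate 2, the library with epidermal markers, the change was -1.59 (limma adjusted *P* = 0.10). The 10 joint markers summed to 205 to 264 NRPKM in the resting and 103 to 120 in the proliferative libraries, and the part of joint cells in the change was not tested.

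Between hypertrophic and proliferative, the log2 difference of *Dhrs3* was 0.77 (SE 0.48, adjusted *P* = 0.39) with all libraries. Without hypertrophic replicate 1 it was 1.33 (limma adjusted *P* = 0.012). In that fit 1905 of all genes tested had an adjusted *P* under 0.05, against 0 with all libraries. Replicates 2 and 3, in which *Dhrs3* was at 41.5 and 40.6 NRPKM, were the libraries with high endothelial, osteoclast and macrophage sums. The part of cells other than chondrocytes in its level was not tested. Against resting, the log2 difference in the *aadd* libraries was -0.36 (SE 0.15, confidence interval -0.72 to 0, unadjusted *P* = 0.050, adjusted *P* = 0.52 in limma), and the libraries of these groups did not overlap.

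*Cyp26b1* (chr6:84571414-84593908, minus strand) encodes the retinoic acid hydroxylase that is most prominent in developing limbs. It was at 10.2, 9.11 and 9.93 NRPKM in WT resting, 9.31, 7.50 and 11.6 in WT proliferative, 9.65, 1.69 and 1.97 in WT hypertrophic and 12.2, 13.9 and 14.0 in *aadd*. Hypertrophic replicate 1 sat within the resting and proliferative range, and replicates 2 and 3 were below every other library. From resting to hypertrophic it fell by 1.57 on the log2 scale (SE 0.64, 95% confidence interval -3.12 to -0.03, unadjusted *P* = 0.047, limma adjusted *P* = 0.18), which passed the study's criteria but did so in 6 of 14 alternative settings and in none that left out a resting library or hypertrophic replicate 2 or 3. Without hypertrophic replicate 1 the change was -2.35 (limma adjusted *P* = 0.0011) against resting and -2.29 (limma adjusted *P* = 0.0079) against proliferative. In those fits 2651 and 1905 of all genes tested had an adjusted *P* under 0.05. With all libraries, the hypertrophic against proliferative value was -1.51 (SE 0.66, adjusted *P* = 0.28). The summed cartilage markers were also low in hypertrophic replicates 2 and 3, at 707 and 1005 NRPKM. They were at 3119 in replicate 1 and 2538 to 5158 in the other libraries. Of those others, proliferative replicate 2 had the highest cartilage sum, 5158, with *Cyp26b1* at 7.50 NRPKM. The lowest, 2538, was in *aadd* replicate 3, with *Cyp26b1* at 14.0. The part of the cell make-up in the level of *Cyp26b1* was not tested.

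All 3 *aadd* libraries held more *Cyp26b1* than any of the 9 WT libraries, a position shared by 2.82% of the genes tested. The means were 13.4 ± 1.01 NRPKM in *aadd* and 9.75 ± 0.578 in WT resting (SD, n = 3). The log2 difference was 0.45 (SE 0.15, 95% confidence interval 0.09 to 0.81, 1.37-fold, unadjusted *P* = 0.022, adjusted *P* = 0.41 in limma). This was under the fold of 1.5 that the study asked for between *aadd* and WT resting, and over the alternative settings the difference stayed between 0.40 and 0.51. The summed level of 10 joint markers was also higher, at 333 to 352 NRPKM in *aadd* and 205 to 264 in WT resting. Of the 10, 4 were higher in *aadd* without overlap and 0 lower, where 15.4% of all genes tested did not overlap in either direction. In the proliferative libraries the joint sum was 103 to 120 NRPKM, while the mean of *Cyp26b1* was 9.455 there. The part of joint cells in the *aadd* difference was not tested.

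**Figure D1:**
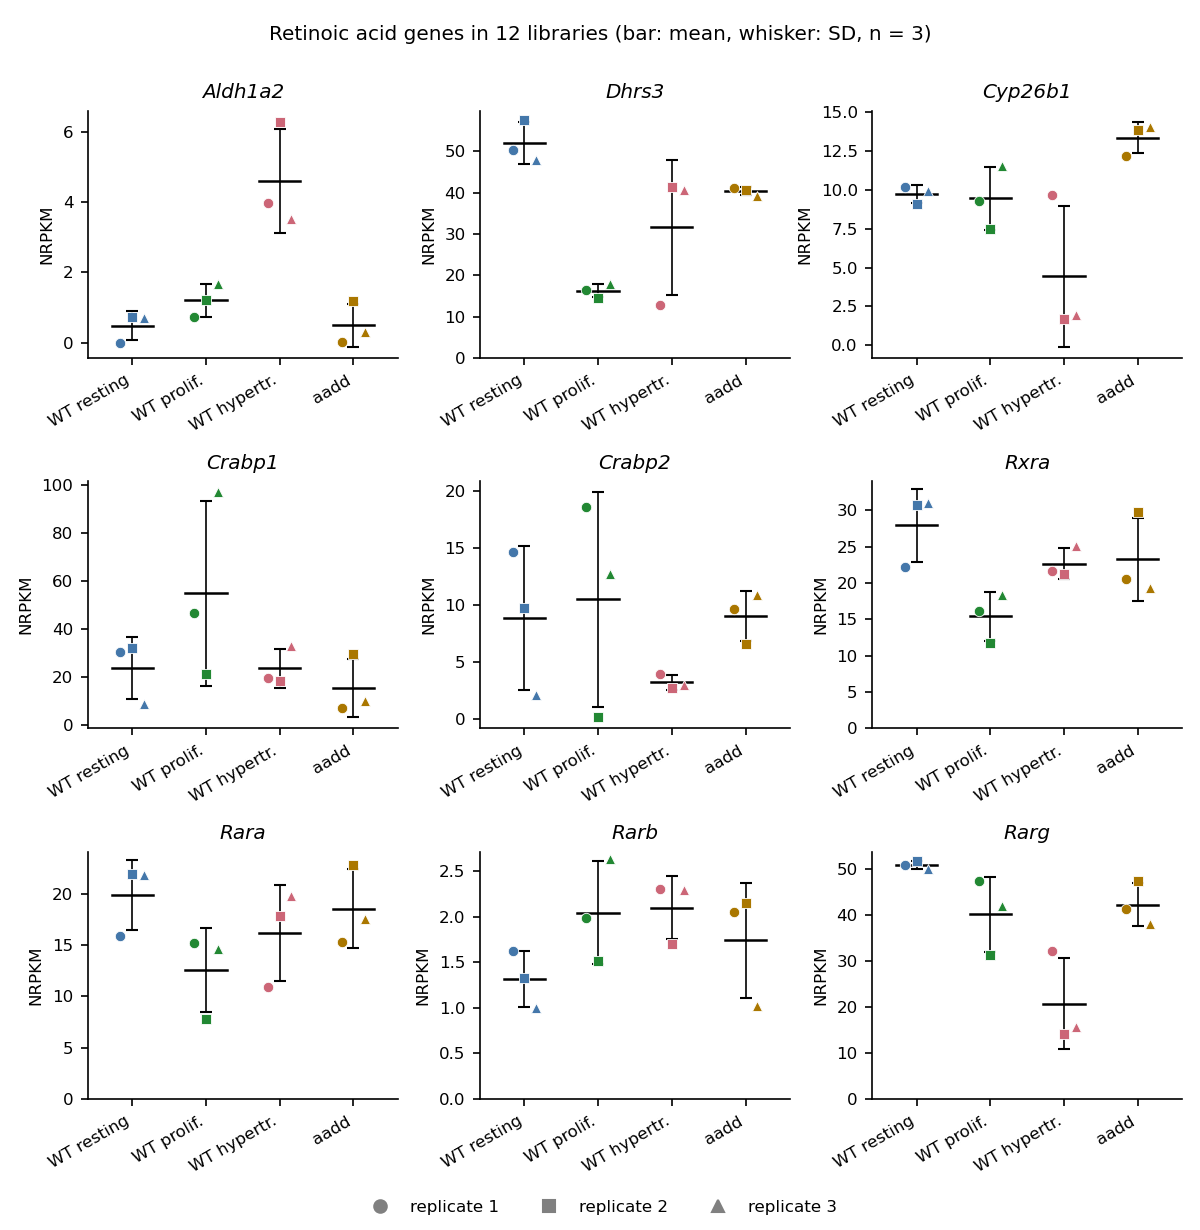
Level of each of the 9 genes in NRPKM (vertical axes, linear and different between panels) by group, with a symbol for each replicate, a bar for the mean and a whisker for the SD. *Dhrs3* and *Rarg* were highest in the WT resting libraries, *Aldh1a2* in the WT hypertrophic and *Cyp26b1* in the *aadd*, and hypertrophic replicate 1 (circle) stood away from replicates 2 and 3 for *Dhrs3*, *Cyp26b1* and *Rarg*.

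The cytosolic binding proteins varied widely between libraries of a group. *Crabp1* (chr9:54764808-54773109, plus strand), whose product binds retinoic acid and is linked to its breakdown, was at 30.6, 32.0 and 8.97 NRPKM in WT resting, 46.9, 21.2 and 96.8 in WT proliferative, 19.6, 18.3 and 33.1 in WT hypertrophic and 7.27, 29.4 and 9.90 in *aadd*. The groups overlapped throughout, and the highest library, proliferative replicate 3, held 96.8 NRPKM next to 21.2 in its own group. *Crabp2* (chr3:87948693-87953372, plus strand), whose product carries retinoic acid to the nucleus, was at 14.7, 9.72 and 2.17 NRPKM in WT resting, 18.5, 0.209 and 12.7 in WT proliferative, 3.99, 2.75 and 2.98 in WT hypertrophic and 9.67, 6.57 and 10.9 in *aadd*. The value of 0.209 stood for less than 1 read by the depth estimate, and the hypertrophic libraries were the most alike.

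With all libraries and no replicate block, no comparison of either gene passed the criteria. The widest differences were *Crabp1* from resting to proliferative, at 1.15 on the log2 scale (SE 0.69, limma adjusted *P* = 0.44), and *Crabp2* from resting to hypertrophic, at -1.07 (SE 0.68, adjusted *P* = 0.36, and -1.22 without hypertrophic replicate 1). The *Crabp1* value ran from 0.55 to 1.70 with a library left out and passed without proliferative replicate 2, at 1.70 (adjusted *P* = 0.38). Against proliferative, *Crabp1* in hypertrophic passed without proliferative replicate 2, at -1.56 (adjusted *P* = 0.38), and with the replicate block (adjusted *P* = 0.29). *Crabp2* passed for hypertrophic against resting without resting replicate 3, at -1.87 (adjusted *P* = 0.056), and against proliferative without proliferative replicate 2, at -2.23 (adjusted *P* = 0.25). The 95% confidence interval for *Crabp2* from resting to proliferative ran from -4.59 to 3.15, so the data do not limit its change to either direction. Its sign turned to 1.16 without proliferative replicate 2, the library at 0.209.

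Among the retinoic acid receptors, *Rarg* was the most abundant per length in 10 of 12 libraries. *Rarg* (chr15:102234940-102257483, minus strand), the receptor best known from cartilage, was at 51.0, 51.8 and 50.1 NRPKM in WT resting, 47.4, 31.4 and 41.9 in WT proliferative, 32.2, 14.2 and 15.7 in WT hypertrophic and 41.3, 47.4 and 38.2 in *aadd*. The resting libraries were the closest to each other. They were above all 9 others, as for 1.15% of all genes tested. From resting to hypertrophic, *Rarg* fell by 1.39 on the log2 scale (SE 0.33, 95% confidence interval -2.19 to -0.60, 2.63-fold, limma adjusted *P* = 0.060), and it passed the study's criteria in all 14 alternative settings with adjusted *P* from 0.0018 to 0.20. From proliferative to hypertrophic it fell by 1.03 (SE 0.36, unadjusted *P* = 0.027, limma adjusted *P* = 0.22), past the criteria here and in 9 of 14 alternative settings, though not without proliferative replicate 1 or 3 or hypertrophic replicate 2 or 3. Without hypertrophic replicate 1 the changes were -1.76 (limma adjusted *P* = 0.0018) and -1.40 (limma adjusted *P* = 0.021). In those fits 2651 and 1905 of the 10936 genes tested had an adjusted *P* under 0.05. The hypertrophic libraries kept, replicates 2 and 3, had cartilage marker sums of 707 and 1005 NRPKM, against 3119 in replicate 1. The part of the cell make-up in the fall of *Rarg* was not tested. The proliferative and *aadd* libraries were all below the resting ones, with differences of -0.36 (SE 0.20, adjusted *P* = 0.40) and -0.27 (SE 0.16, adjusted *P* = 0.65) that did not pass.

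*Rara* (chr11:98937696-98974942, plus strand), the most broadly expressed of the receptors, was at 15.9, 21.9 and 21.8 NRPKM in WT resting, 15.2, 7.81 and 14.6 in WT proliferative, 10.9, 17.8 and 19.8 in WT hypertrophic and 15.3, 22.9 and 17.5 in *aadd*. Every proliferative library was below every resting one, by -0.71 on the log2 scale (SE 0.30, adjusted *P* = 0.31), and no comparison passed the criteria.

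*Rarb* (chr14:16430840-16819134, minus strand) was at 1.62, 1.33 and 0.997 NRPKM in WT resting, 1.99, 1.51 and 2.64 in WT proliferative, 2.31, 1.70 and 2.30 in WT hypertrophic and 2.06, 2.15 and 1.02 in *aadd*. An estimated 13 to 36 reads stood behind these values, and the gene's span overlaps that of the row *Gm19061*, so reads there may be shared. It did not enter the fit. The hypertrophic libraries lay above the resting ones (exact two-sided permutation *P* = 0.1, the smallest possible), and the groups of the other 3 comparisons overlapped (exact permutation *P* of 0.2 to 0.9). This was the level of the gene whose promoter match is printed above.

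*Rxra* (chr2:27677201-27763319, plus strand), the partner receptor, was at 22.2, 30.7 and 31.0 NRPKM in WT resting, 16.1, 11.7 and 18.4 in WT proliferative, 21.7, 21.3 and 25.1 in WT hypertrophic and 20.6, 29.9 and 19.4 in *aadd*. The proliferative libraries were below all 9 others, as for 1.58% of all genes tested. The log2 difference from resting to proliferative was -0.86 (SE 0.24, 95% confidence interval -1.43 to -0.29, unadjusted *P* = 0.0095, limma adjusted *P* = 0.18), a fold of 1.82 that was short of the limit of 2. It passed without resting replicate 1, at -1.02 (adjusted *P* = 0.16), and without proliferative replicate 3 (adjusted *P* = 0.23). From proliferative to hypertrophic it was 0.58 (SE 0.22, adjusted *P* = 0.25), and 0.61 without hypertrophic replicate 1.

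Counted together, 7 of the 9 genes entered the tests. Between proliferative and resting, 1 of the 7 passed the criteria, where 5.53% of all genes tested did, and the same gene, *Dhrs3*, had an adjusted *P* under 0.05, where 0.622% did. With the replicate number as a block, its limma adjusted *P* was 0.072. The libraries of these compartments did not overlap for 4 of the 7, all lower in proliferative (*Dhrs3*, *Rara*, *Rarg* and *Rxra*), against 24% of all genes. Between hypertrophic and proliferative, 1 passed the criteria (*Rarg*) against a background of 9.67%, and 1 did not overlap (*Rxra*) against 24.2%. No gene of the 7 had an adjusted *P* under 0.05 there, as for 0% of all genes by limma. Of all genes, 2115 had an unadjusted *P* under 0.05 there, and 705 passed adjustment in a fit of all 12 libraries at once. Unadjusted, 2 of the 7 were under 0.05. Between hypertrophic and resting, 2 passed the criteria (*Rarg* and *Cyp26b1*) against 13%, none had a limma adjusted *P* under 0.05 against 6.36% (2 had an unadjusted *P* under 0.05), and 2 did not overlap (*Dhrs3* and *Rarg*) against 32%. Between *aadd* and resting, none passed the criteria against 6.56% and none had an adjusted *P* under 0.05 against 0.119%, while 1 had an unadjusted *P* under 0.05. In that comparison 3 did not overlap (*Cyp26b1*, *Dhrs3* and *Rarg*) against 15.4%.

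The median log2 difference over the 7 genes was -0.71 from resting to proliferative, where it was -0.06 over all genes tested. It was -0.90 from resting to hypertrophic and -0.27 from resting to *aadd*, where all genes stood at -0.02 and 0.01. These medians moved when 1 library was left out. From resting to proliferative it was -0.19 without proliferative replicate 2, and -0.36 and -0.47 without resting replicates 1 and 2. From resting to hypertrophic it was -0.34 without hypertrophic replicate 1 and -0.52 without resting replicate 1. In *aadd* it was -0.16 without *aadd* replicate 3. From proliferative to hypertrophic it was -0.35, and turned to 0.55 and 0.46 without proliferative replicates 1 and 3. The WT resting libraries enter each of these comparisons except proliferative to hypertrophic, whose libraries enter others, so the values are not independent of each other. In the limma F test over the 4 groups, *Rarg* (adjusted *P* = 0.028) and *Dhrs3* (adjusted *P* = 0.043) passed, as did 13.8% of all genes tested, and *Cyp26b1* (adjusted *P* = 0.070) and *Rxra* (adjusted *P* = 0.099) did not. *Rarg* was above 0.05 without any of the resting libraries, *aadd* replicate 1 or hypertrophic replicate 2 or 3, at most at 0.14. *Dhrs3* was at 0.056 with the replicate block, where *Rarg* was at 0.035. It was also above 0.05 without any library other than hypertrophic replicates 1 and 2, at most at 0.11. Without hypertrophic replicate 1, the F-test adjusted *P* in limma was 0.00077 for *Rarg*, 0.00014 for *Dhrs3* and 6.2e-05 for *Cyp26b1*. Between hypertrophic and resting, 2651 of all genes then had a limma adjusted *P* under 0.05, against 696 with replicate 1. The hypertrophic libraries kept, replicates 2 and 3, had high endothelial and osteoclast sums and low cartilage sums. The part of this cell make-up was not tested.

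**Figure D2:**
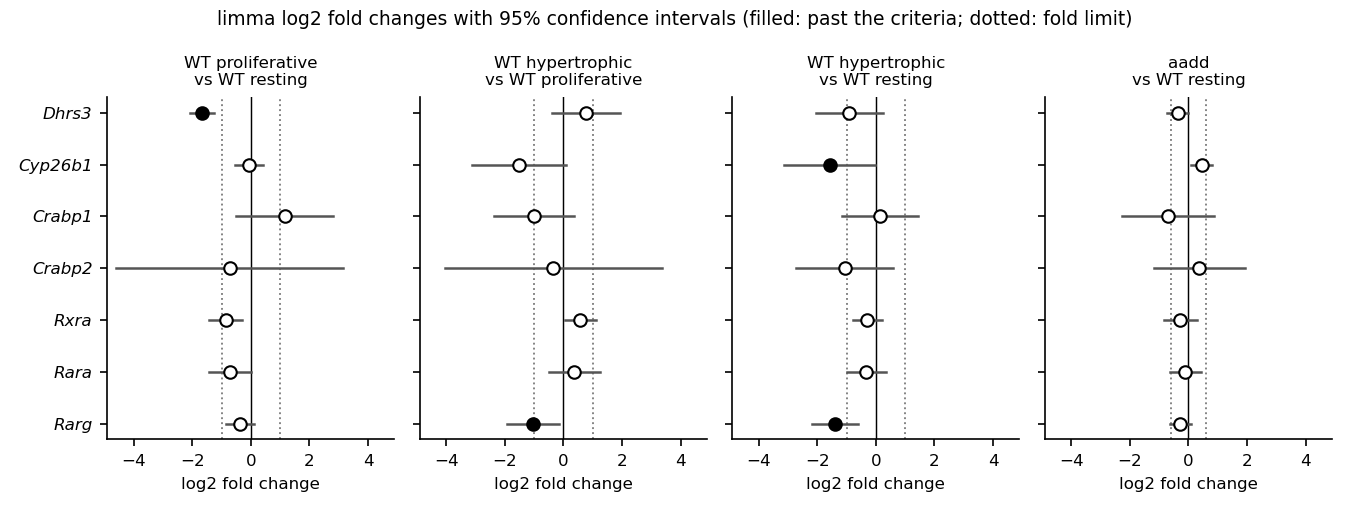
Log2 fold change (horizontal axes) of the 7 genes tested in 4 comparisons, with points for the limma estimate, lines for the 95% confidence interval and filled points for genes past the study's criteria. *Dhrs3* was past them between WT proliferative and resting, *Rarg* in both hypertrophic comparisons and *Cyp26b1* between hypertrophic and resting, and the longest interval was that of *Crabp2*, from -4.59 to 3.15.

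Because ratios within a library do not depend on how libraries were scaled to each other, the receptors were also compared as shares of *Rara*, *Rarb* and *Rarg* summed. *Rarg* made up 74.4%, 69.0% and 68.7% of the sum in WT resting, 73.4%, 77.1% and 70.8% in WT proliferative, 70.9%, 42.1% and 41.6% in WT hypertrophic and 70.4%, 65.5% and 67.3% in *aadd*. The share was thus similar in 10 libraries and lower in hypertrophic replicates 2 and 3, where *Rara* took 52.9% and 52.3%. *Rara* was at 17.8 and 19.8 NRPKM in those libraries, within its range in WT resting, and *Rarg* was at 14.2 and 15.7, below its level in each of the other 10. Cartilage markers were also lowest and endothelial and osteoclast markers highest in those libraries, and the part of the cell make-up in the shares was not tested.

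Synthesis and breakdown genes were also set against each other within each library. The sum of *Aldh1a1*, *Aldh1a2* and *Aldh1a3*, the retinal dehydrogenases, was 0.374, 1.12 and 1.09 NRPKM in WT resting, 1.58, 3.03 and 4.10 in WT proliferative, 16.5, 11.6 and 11.9 in WT hypertrophic and 0.176, 3.65 and 1.02 in *aadd*. The sum of *Cyp26a1*, *Cyp26b1* and *Cyp26c1* was 12.04, 9.64 and 10.8 NRPKM in WT resting, 11.8, 8.45 and 11.8 in WT proliferative, 10.9, 1.69 and 1.97 in WT hypertrophic and 12.4, 14.6 and 14.3 in *aadd*. The breakdown sum exceeded the synthesis sum in all 9 libraries outside the hypertrophic compartment, by 1.45 to 5.50 on the log2 scale, and was below it in all 3 hypertrophic libraries, at -0.60, -2.70 and -2.54. These are transcript ratios and no retinoic acid was measured.

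The retinal reductase and the retinol dehydrogenase *Rdh10*, which forms retinal in the embryo, act in opposite directions. The ratio of *Dhrs3* to *Rdh10* was 7.45, 18.8 and 9.75 in WT resting, 1.97, 1.77 and 2.83 in WT proliferative, 2.39, 4.87 and 6.88 in WT hypertrophic and 6.73, 7.57 and 4.04 in *aadd*. The lowest resting ratio, 7.45, was above the highest proliferative ratio, 2.83.

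**Figure D3:**
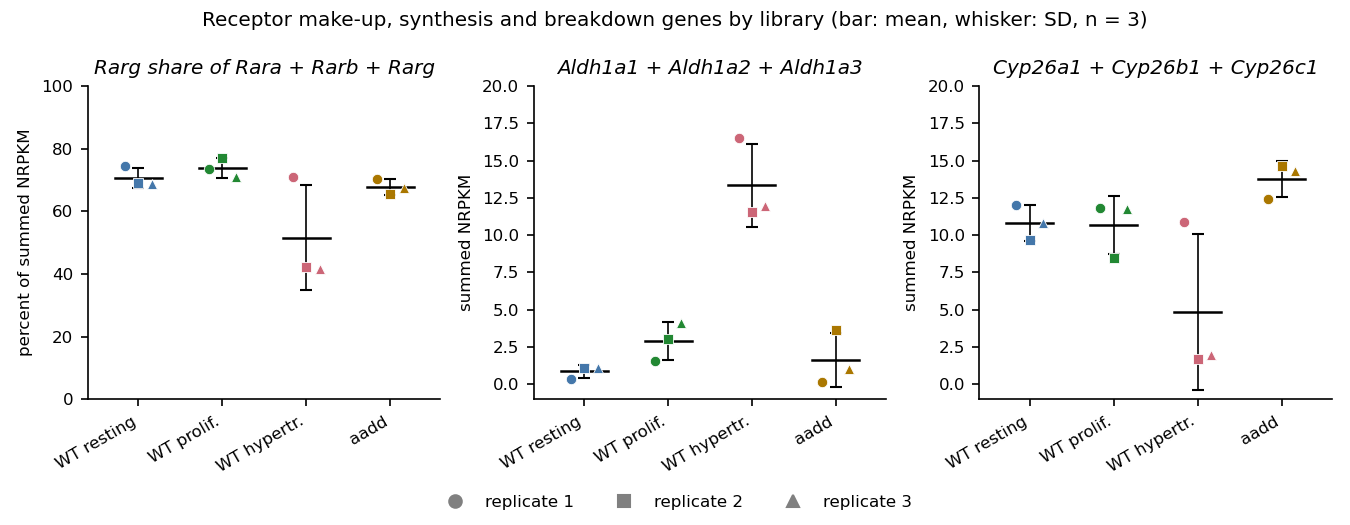
Share of *Rarg* in the summed NRPKM of *Rara*, *Rarb* and *Rarg* (left, percent), and summed NRPKM of the 3 retinal dehydrogenase genes (middle) and of the 3 *Cyp26* genes (right), by group, with a symbol for each replicate, the mean and the SD. The hypertrophic libraries had 11.6 to 16.5 NRPKM of dehydrogenase genes, above all other libraries, and replicates 2 and 3 had 1.69 and 1.97 of *Cyp26* genes.

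The rest of the pathway was read from a list of 37 genes for retinol transport, ester storage, retinal formation, synthesis, breakdown, binding, receptors, coregulators and known responsive genes. All 37 were in the table and 17 were tested. Between proliferative and resting, 3 passed the criteria, all higher, where 5.53% of all genes tested passed in either direction, and between hypertrophic and resting 3 passed, all higher, against 13%. Between hypertrophic and proliferative 2 passed, both higher, against 9.67%, and between *aadd* and resting 1 passed, lower, against 6.56%. The 4 genes behind these counts were *Stra6*, *Aldh1a3*, *Fabp5* and *Tgm2*. *Aldh1a3* met the filter on low values through the hypertrophic libraries and *Stra6* through proliferative and hypertrophic ones, so these counts are a description. The median log2 difference over the 17 was between -0.08 and 0.09 in all 4 comparisons, near that of all genes.

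*Aldh1a3*, a dehydrogenase that forms retinoic acid as *Aldh1a2* does, was at 0.344, 0.178 and 0.397 NRPKM in WT resting, 0.795, 0.796 and 2.42 in WT proliferative, 12.5, 5.30 and 8.23 in WT hypertrophic and 0.170, 1.25 and 0.709 in *aadd*. All hypertrophic libraries were above all others, as for 5.73% of all genes tested, with the highest level in replicate 1, where endothelial and osteoclast markers were low. The osteoblast markers given beside *Aldh1a2* were also highest in these libraries, and their part in the level of *Aldh1a3* was not tested. Only the 3 hypertrophic libraries reached the 5 NRPKM of the filter, so the gene was tested because it was high there, and its difference from resting, 4.39 on the log2 scale (SE 0.38) and 4.09 without hypertrophic replicate 1, is given as a description. From resting to proliferative the difference was 1.68 (SE 0.46, limma adjusted *P* = 0.18). It compares low levels, with an estimated 4.7 reads at most in a resting library. With a pseudocount of 1 it was 0.77 and did not pass the criteria, nor did it with the variance trend (SE 1.32).

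*Stra6*, the cell-surface receptor that takes up retinol, was at 1.49, 1.27 and 0.673 NRPKM in WT resting, 14.5, 3.63 and 12.2 in WT proliferative, 22.5, 0.798 and 0.619 in WT hypertrophic and 0.320, 0.392 and 0.208 in *aadd*. It was high in the proliferative libraries and hypertrophic replicate 1 and low elsewhere, and *aadd* lay below all 9 WT libraries, as for 1.09% of all genes tested. The log2 difference was 2.88 from resting to proliferative (SE 0.56). Only proliferative replicates 1 and 3 and hypertrophic replicate 1 reached the 5 NRPKM of the filter, so this value is given as a description. From resting to *aadd* the difference was -1.57 (SE 0.32, limma adjusted *P* = 0.19). It compares low levels, with an estimated 26 reads at most in a resting library and 5.2 in an *aadd* one. The span of *Stra6* overlaps that of *Ccdc33*, so reads there may be shared.

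*Fabp5*, a binding protein that hands retinoic acid to another receptor, PPARδ, was at 34.7, 31.5 and 28.4 NRPKM in WT resting, 34.5, 20.8 and 37.5 in WT proliferative, 42.5, 85.9 and 70.3 in WT hypertrophic and 37.9, 29.3 and 37.7 in *aadd*. The hypertrophic libraries were the highest, as for 5.73% of all genes tested, with a log2 difference of 1.01 from resting (SE 0.29, adjusted *P* = 0.089) and 1.30 without hypertrophic replicate 1. It did not pass the criteria without resting replicate 3, at 0.94, or hypertrophic replicate 2 or 3, at 0.80 and 0.94. Its level was 42.5 NRPKM in hypertrophic replicate 1 and higher in replicates 2 and 3, as for the endothelial, osteoclast and macrophage sums. The part of cells other than chondrocytes in the level of *Fabp5* was not tested. *Tgm2*, a transglutaminase gene known to respond to retinoic acid, was at 12.5, 4.49 and 12.3 NRPKM in WT resting, 30.8, 14.7 and 32.3 in WT proliferative, 36.7, 17.3 and 15.9 in WT hypertrophic and 12.2, 11.4 and 9.17 in *aadd*, with a log2 difference of 1.46 from resting to proliferative (SE 0.49, adjusted *P* = 0.23). It did not pass without resting replicate 2 or proliferative replicate 1 or 3, at 0.98, 1.29 and 1.26. From resting to hypertrophic it was 1.28, and 0.90 without hypertrophic replicate 1, when it did not pass.

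**Figure D4:**
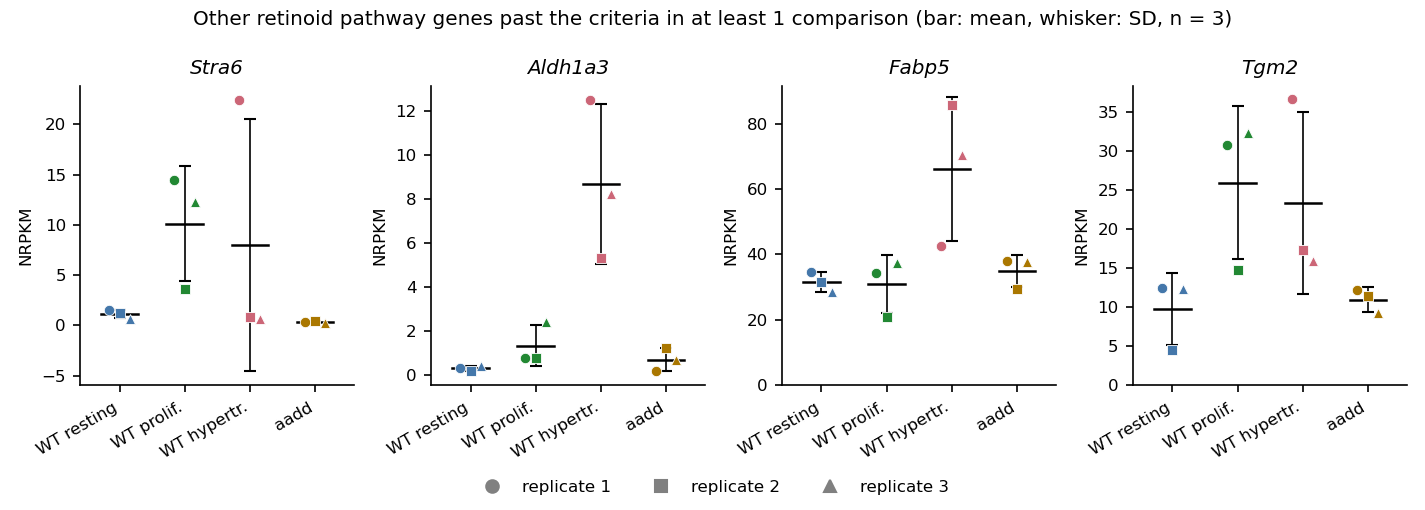
Level in NRPKM (vertical axes, linear and different between panels) of the 4 other pathway genes that passed the criteria in at least 1 comparison, by group, with a symbol for each replicate, the mean and the SD. *Stra6* was at 22.5 in hypertrophic replicate 1 (circle) and below 1 in replicates 2 and 3, while *Aldh1a3* was above all other libraries in all 3.

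For the 3 genes with the smallest F-test *P*, genes of similar pattern were found by Pearson correlation over the 12 libraries. Among those of highest correlation were *Trpm5* (*r* = 0.979), *Epb4.1l1* (0.977) and *Rtl1* (0.977) for *Rarg*, *Nck2* (0.956) and *Limch1* (0.955) for *Dhrs3*, and *Cytl1* (0.974), *Capn6* (0.974) and *Supt20* (0.968) for *Cyp26b1*. All points share the split within the hypertrophic group and the scaling of the libraries, and the values are a description.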

How the data were processed

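RNA-Seq libraries from LCM samples, 3 in each of 4 groups, were analysed from the table that the authors deposited. Its RPKM values were normalized further between libraries by the authors and are called NRPKM. Per the study's methods, low-quality, multiply aligned and duplicate reads were removed and values computed in GeneSpring with mouse build mm10. The submitters' processing notes name TopHat. The scaling between libraries and the use of strand are not given in the sources used here.

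Values were taken as log2(NRPKM + 0.1). The 10936 genes that reached 5 NRPKM in 3 or more libraries were fitted in limma 3.58.1 (R 4.3.3), each comparison on its 6 libraries, with Benjamini-Hochberg adjustment over all of them. All fold changes are on this scale, which understates changes of low genes. The criteria were those of the study, an unadjusted *P* up to 0.05 with a fold of 2, or 1.5 for *aadd*. For *aadd* against WT the study also used an Audic Claverie test on pooled reads, which by its account found more differences. That test was not run here. The 4 groups were compared with limma's F test. Genes under the filter were compared by an exact permutation test (scipy 1.17.1). Tables and plots used Python 3.11.15, pandas 2.3.3, numpy 2.4.6 and matplotlib 3.10.9. The fit was tested on simulated data. The table holds no counts, so the depth was estimated, and read numbers cover counting error only. The labels call the replicates separate samples of a group, and *P* values measure the spread between these libraries.

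The 9 genes, the list of 37 pathway genes and the marker lists were chosen with earlier results of these data known. Named beside the 9 genes are the pathway genes that passed the criteria in any comparison and, for the 3 genes with the smallest F-test *P*, the 3 genes of highest correlation. A few genes that would fall under this rule or the pathway list are not reported here. Marker lists are given as sums and counts. The lists for osteoblast, perichondrium, tendon, skeletal muscle and erythroid genes are given with the other observations. List genes under an older symbol were matched by gene ID through RefSeq.

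Alternatives changed the pseudocount (to 1), the filter (none, or applied to the 6 libraries at hand), the scaling (quantiles, or median of ratios) and the fit (all 12 libraries, a variance trend, or a replicate block), and left out each library. As a check of pairing, libraries with the same number were correlated over genes by their distance from the group mean. Between proliferative and resting *r* was 0.281, 0.179 and 0.198, so the numbers pair these libraries by the rule that every *r* exceeds 0.1. Values for that comparison do not use the pairing unless the replicate block is named. In the other 3 comparisons at least 1 pair was under 0.1.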

Additional observations from a re-analysis of the deposited data

How the results depend on the processing

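Of the single-gene differences, 358 values under alternative settings kept their sign and side of the criteria, 13 no longer passed, 10 newly passed and 9 changed sign. Those 9 were small or scattered differences. *Cyp26b1* from resting to proliferative was 0.05 with quantile normalization and -0.22 to 0.09 with a library left out (0.09 without proliferative replicate 2). With a library left out, *Crabp2* ran from -1.80 to 1.16 for proliferative against resting, from -2.23 to 0.73 for hypertrophic against proliferative (0.73 and 0.46 without proliferative replicates 1 and 3) and from -0.43 to 0.92 for *aadd* (-0.43 without resting replicate 3). *Crabp1* from resting to hypertrophic ran from -0.45 to 0.46, with -0.45 without resting replicate 3 and -0.12 without hypertrophic replicate 3, and *Rara* in *aadd* ran from -0.26 to 0.02, the last without *aadd* replicate 1.

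For proliferative against resting, the number of the 9 genes with an adjusted *P* under 0.05 went from 1 to 0 with no filter, with all 12 libraries in a single fit and with the replicate block (the cause was not tested). Leaving out a library gave 1 to 2 genes past the criteria and 0 to 1 with an adjusted *P* under 0.05. For hypertrophic against proliferative, 1 gene passed the criteria, 0 with a pseudocount of 1, and 2 with no filter (where *Aldh1a2* entered), with all 12 libraries and with the replicate block. Leaving out a library gave 0 to 3, and 0 to 3 with an adjusted *P* under 0.05. Past the criteria were *Crabp1*, *Crabp2* and *Rarg* without proliferative replicate 2, and *Cyp26b1*, *Dhrs3* and *Rarg* without hypertrophic replicate 1. The latter 3 also had an adjusted *P* under 0.05, when 1905 of all genes had an adjusted *P* under 0.05 against 0 with it. For hypertrophic against resting, 2 passed the criteria, 1 with median of ratios rescaling and 1 with quantile normalization, and 1 to 2 with a library left out. The number with an adjusted *P* under 0.05 was 0, and 1 with a pseudocount of 1, the filter over the libraries compared, all 12 libraries and the variance trend, and 0 to 2 with a library left out. For *aadd* no setting gave a gene past either limit. In the F test 2 passed, 0 with no filter, 1 with the replicate block (*Rarg*) and 0 to 3 with a library left out. The causes were not tested.

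Over all genes, the block gave 9 genes with an adjusted *P* under 0.05 for proliferative against resting in place of 68, and 0 for *aadd* in place of 13. Quantile normalization moved the share of higher calls between proliferative and resting from 46.3% to 58.5%. Depth limits *Aldh1a2*, *Rarb* and *Crabp2* the most.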

Other observations

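The summed level of 10 osteoblast markers was 522 to 1046 NRPKM in WT resting, 908 to 1868 in WT proliferative, 2115 to 4736 in WT hypertrophic and 562 to 1138 in *aadd*. Perichondrial and fibroblast markers overlapped between all groups, from 306 to 801 NRPKM. Tendon markers ran from 75.6 NRPKM in hypertrophic replicate 1 to 592 in *aadd* replicate 2. Skeletal muscle markers were at 134 NRPKM in proliferative replicate 3, the library with the highest *Crabp1*, and at 9.75 to 64.4 elsewhere, and the part of muscle in that value was not tested. Erythroid markers, 8 of 10 in the table, were at 451 and 482 NRPKM in hypertrophic replicates 2 and 3 and at 63.3 to 217 in the other libraries.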
